A study of Homo sapiens with 10 samples.

Results

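The mitochondrial chaperones and proteases comprised 10 nuclear genes, chosen by their symbols among the 28380 genes of the deposited count table. Of these, HSPD1, HSPE1, HSPA9 and TRAP1 encode chaperones or a co-chaperone of the matrix, and LONP1, CLPP, CLPX, YME1L1, AFG3L2 and HTRA2 encode proteases or their subunits. All 10 were in the table and all 10 passed the filter on low counts, which left 13378 genes for testing. RPE-1 is an established line of telomerase-immortalized retinal pigment epithelial cells. In complete DMEM, 5 replicates received sulforaphane (SFN), an isothiocyanate from cruciferous vegetables, and 5 received the vehicle, DMSO, for 4 h before RNA was sequenced. Of the defining epithelial markers, RPE65 had at most 3 counts and RLBP1 at most 4 in any library, whereas KRT8 had at least 4835 and KRT18 at least 2396. MITF, a transcription factor of pigment cells, had between 758 and 1210 counts in DMSO and between 217 and 401 in SFN and fell (log2 fold change -1.12, edgeR adjusted p = 5.3e-05), as did OTX2 (-0.64, edgeR adjusted p = 0.0029). BEST1 went the other way, with 97 to 672 counts in DMSO and 275 to 1244 in SFN. Its log2 fold change was 1.17 (edgeR adjusted p = 0.16), and 1.68 without the library DMSO replicate 1 (edgeR adjusted p = 0.0096). PMEL (0.14) and RDH5 (-0.70) did not pass with or without that library. The part of these marker changes in the results was not tested. The summed count of 6 markers of other cell types lay between 2 and 24 in DMSO and between 3 and 22 in SFN.

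Mitochondria import most of their proteins unfolded, and the matrix HSP70 (HSPA9) and the chamber formed by HSP60 and HSP10 (HSPD1 and HSPE1) fold them there. ATP-dependent proteases remove proteins that fail to fold: LONP1 and the CLPX-CLPP complex act in the matrix, and YME1L1 and AFG3L2 are anchored in the inner membrane. Cells can raise these genes together when mitochondrial proteins misfold, a program known as the mitochondrial unfolded protein response. Several of the chaperones are also targets of HSF1, the factor that drives the heat shock response.

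Libraries held between 12375860 and 20666692 counts, and levels are given as CPM, counts relative to the size of the library, scaled between libraries by the TMM method. DMSO replicate 1 stood apart: its genes correlated with those of the other DMSO libraries at a mean Spearman coefficient of 0.935, while each other library reached at least 0.979 within its own group. Results on the 10 genes are therefore given with and without this library. Genes encoded in mitochondrial DNA took between 1.25% and 2.07% of counts in DMSO and between 2.06% and 2.69% in SFN, and the part of this shift in the results was not tested. Labels do not say that replicates came from separate cultures, so p-values measure only the spread between these samples.

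SFN significantly increased 3 of the 10 genes, HSPD1, HSPA9 and LONP1, by edgeR's quasi-likelihood test, where 9.07% of all genes tested were increased (23% were called in either direction, 1214 up and 1862 down, or 819 up and 2163 down when scaled by library size only). It decreased 0 of the 10, where 13.9% of all genes were decreased (0 also at an unadjusted p under 0.05 and 0 by DESeq2). These increases were between 1.33-fold and 1.40-fold, and 0 of the 10 passed the threshold with an absolute log2 fold change above 1, which 8.69% of all genes did. When genes with low counts were not removed, 0 of the 10 were increased, where 1135 of all 28380 genes were. Adjusted p-values by edgeR were then 0.056, 0.057 and 0.061 for HSPD1, HSPA9 and LONP1. The median log2 fold change of the 10 genes was 0.23, against -0.03 over all genes tested. Without DMSO replicate 1, 6 of the 10 were increased, HSPE1, CLPP and YME1L1 being added, where 22.5% of all genes were increased, and 0 were decreased, where 23.5% were (46.1% in either direction). HSPE1 alone then had a log2 fold change above 1, where 10.9% of all genes did so in either direction. Their median was then 0.30, against -0.0032 over all genes.

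**Figure D1:**
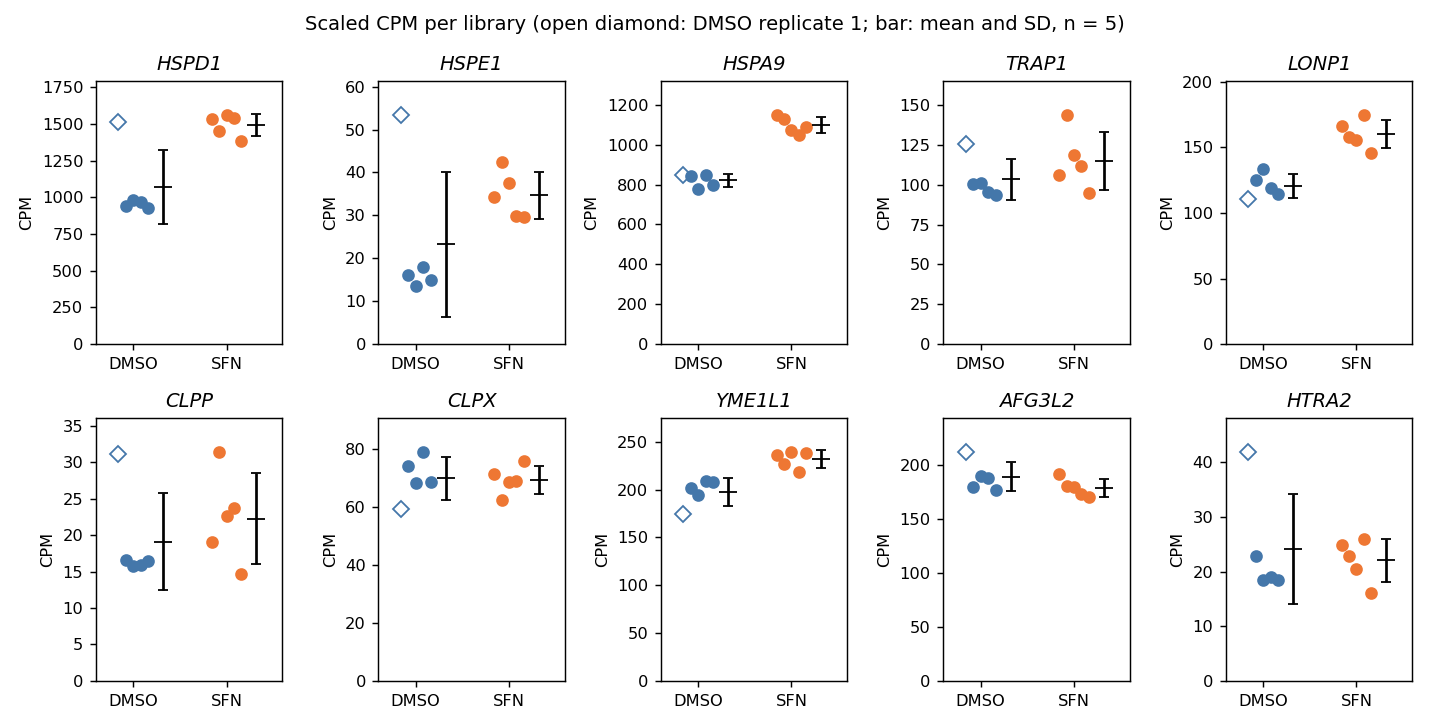
Scaled CPM (vertical axes, from 0) of each gene in the 5 DMSO and 5 SFN libraries, with the mean and SD beside the points and DMSO replicate 1 as an open diamond. HSPA9, LONP1 and YME1L1 separate the groups fully, and HSPD1 and HSPE1 do so once the open diamond is set aside.

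HSPD1 encodes HSP60, the barrel-shaped chaperonin of the matrix. On chromosome 2 of GRCh38 it spans 197486584 to 197516737 on the minus strand. It was read at 1515 CPM in DMSO replicate 1 and at 944, 981, 967 and 926 CPM in replicates 2 to 5, and at 1532, 1449, 1557, 1540 and 1386 CPM in the SFN libraries. Thus 4 DMSO libraries lay below every SFN library, and DMSO replicate 1 lay within the SFN range. HSPD1 rose from 1067 ± 251.6 CPM (SD, n = 5) to 1493 ± 72.9 CPM (SD, n = 5), a log2 fold change of 0.48 (standard error, SE, 0.15, edgeR adjusted p = 0.034). Without DMSO replicate 1, the DMSO level was 955 ± 24.5 CPM (SD, n = 4) and the log2 fold change 0.64 (SE 0.073, edgeR adjusted p = 1.2e-05). The call was past the threshold in 8 of 17 alternative analyses and was lost without any of DMSO replicates 2 to 5 or SFN replicates 1, 3 and 4 (adjusted p from 0.068 to 0.087).

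HSPE1 encodes HSP10, the lid that closes the HSP60 chamber. It runs from 197500140 to 197503449 on the plus strand, opposite to HSPD1 and within the span annotated for it. The DMSO libraries held 53.3, 16.1, 13.6, 18.1 and 15.04 CPM in the order of their numbers, and the SFN libraries 34.2, 42.4, 37.5, 29.8 and 29.5 CPM. DMSO replicate 1 was the highest of all 10 libraries, and the other DMSO libraries were the 4 lowest. Over all libraries HSPE1 did not pass the threshold (23.2 ± 16.9 against 34.7 ± 5.41 CPM, SD, n = 5 each, log2 fold change 0.58, SE 0.35, edgeR adjusted p = 0.27). Without DMSO replicate 1 its log2 fold change was 1.14 (SE 0.13, adjusted p = 9.4e-06), the largest of the 10 genes in that fit.

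Part of the sequence between the start sites of HSPD1 and HSPE1 is shown because both genes had their lowest values in the same 4 libraries. These were the DMSO libraries other than DMSO replicate 1. Without DMSO replicate 1, 16.6% of all genes had higher SFN values without overlap, so that separation was not particular to HSPD1 and HSPE1. Whether these genes are regulated together was not tested. RefSeq starts on GRCh38.p14 leave 538 bases between them (197499840 for HSPD1 and 197500379 for HSPE1). The 250 bases before this HSPD1 start, chr2:197499841-197500090, were read on the minus strand, and capitals mark bases that match a heat shock element, the motif HSF1 binds. The spellings searched on both strands, which may overlap, were GAANNTTC and TTCNNGAA.

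HSPD1 upstream region: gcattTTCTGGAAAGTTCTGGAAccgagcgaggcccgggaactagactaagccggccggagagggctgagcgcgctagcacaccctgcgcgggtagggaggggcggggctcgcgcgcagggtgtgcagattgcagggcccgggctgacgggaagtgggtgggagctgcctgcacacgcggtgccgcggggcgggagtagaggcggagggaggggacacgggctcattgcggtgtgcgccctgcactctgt

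The capitals form one run of 18 bases in which 4 units of TTC and GAA alternate, each 2 bases from the next. It lies at 197500068 to 197500085, from 228 to 245 bases before this HSPD1 start. HSPD1 had 2 windows, and only the window of this start held the run. From the RefSeq start of HSPE1 the run is 294 to 311 bases away, outside the HSPE1 window. The GENCODE span of HSPE1 begins nearer to the run, at 197500140. Among 35116 promoter windows of 300 bases (250 before and 50 after a start), 12 held 4 such units in a row, or 0.0342%, and 172 held at least 3, or 0.490%. These longer searches were added after the shorter matches had been seen. GAANNTTC was found in 6.77% of windows and TTCNNGAA in 7.74%. Windows were given for 8 of the 10 genes, 11 in all, and not for CLPP and YME1L1. TTCNNGAA was also found in the HSPA9 window, across the start site. No member window held TGATGNAAT, a form of the element that ATF4 and C/EBP factors bind (0.991% of windows), and 1, that of TRAP1, held TGACNNNGC, the core of the antioxidant response element that NRF2 binds (13.3% of windows). A match is a description of the letters and not of binding.

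The HSPA9 match is shown beside those of HSPA1A and HSPA1B, the inducible cytosolic HSP70 genes, in 30-base stretches with the same capitals.

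HSPA9, chr5:138575387-138575416, minus strand: tggttggaggtTTCCAGAAgcgctgccgcc

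HSPA1A, chr6:31815426-31815455, plus strand: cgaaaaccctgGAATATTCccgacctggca

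HSPA1B, chr6:31827622-31827651, plus strand: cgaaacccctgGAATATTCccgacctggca

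HSPA1A and HSPA1B, whose counts are uncertain because the genes are near-identical, rose 14.4-fold (edgeR adjusted p = 2.4e-08) and 20.2-fold (edgeR adjusted p = 4.3e-09). HSPA9, whose match has the other spelling and lies across the start site, rose 1.33-fold. HSPD1, with the run of 4 units, rose 1.40-fold over all libraries. HSPA1A and HSPA1B had the largest rises in the list of cytosolic and nuclear chaperones, so they show its extremes. DNAJB1, another gene of that list that was searched, held GAANNTTC, once just after a start site. Its log2 fold change was 1.27 (edgeR adjusted p = 3.3e-06). No relation between the matches and the changes was tested.

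HSPE1 values carry further uncertainty. HSPD1, on the opposite strand, shares 135 bases with the exons of HSPE1, or 7.41% of them, and had between 15649 and 25707 counts against between 243 and 856 for HSPE1. If strand was not used in counting, reads in these bases cannot be told apart, which bears on the HSPE1 level and on its ratio to HSPD1. A readthrough gene, HSPE1-MOB4, shares 10.5% of the exon bases of HSPE1, and 12 genes named as HSPE1 pseudogenes had summed counts between 1.99% and 7.91% of those of HSPE1. For HSPD1 the 11 pseudogenes summed to at most 0.575%. HSPE1-MOB4 had 0, 4, 0, 3 and 1 counts in the DMSO libraries and 28, 59, 26, 16 and 43 in the SFN libraries, without overlap, and it rose (edgeR adjusted p = 3.1e-04; with counts this low the fitted fold depends on the prior count and is not given). MOB4, the downstream gene, was named after its values were seen. It was at 51.3, 29.98, 25.4, 31.6 and 31.3 CPM in DMSO and between 45.4 and 62.9 CPM in SFN (log2 fold change 0.71, SE 0.18, adjusted p = 0.014). Its high DMSO value was again that of replicate 1.

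HSPA9 encodes mortalin, the HSP70 that pulls proteins through the import channel and passes them on for folding. It lies on chromosome 5 from 138553756 to 138575675. Its DMSO libraries held 847, 844, 777, 846 and 799 CPM and its SFN libraries 1147, 1128, 1072, 1049 and 1089 CPM. Every SFN library was above every DMSO library, and DMSO replicate 1 sat among the other DMSO libraries. HSPA9 rose from 823 ± 32.6 to 1097 ± 40.3 CPM (SD, n = 5 each), a log2 fold change of 0.42 (SE 0.091, edgeR adjusted p = 0.0062) and 0.42 without DMSO replicate 1 as well. It passed the threshold in 15 of 17 alternatives. The exceptions were the fit without a low-count filter and limma-voom with quantile normalization (log2 fold change 0.29, adjusted p = 0.086).

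TRAP1, the HSP90 of mitochondria, lies on chromosome 16 from 3651639 to 3717553. Levels overlapped, with 126, 100.3, 101, 95.6 and 93.7 CPM in DMSO and 106, 143, 118, 112 and 94.8 CPM in SFN. The highest value came from SFN replicate 2 and the next from DMSO replicate 1. For TRAP1 the log2 fold change was 0.15 (SE 0.13, adjusted p = 0.46) and 0.23 without DMSO replicate 1 (adjusted p = 0.091). DNASE1, on the opposite strand, covers 28.5% of the TRAP1 exon bases and had between 108 and 291 counts, so reads of the pair cannot be told apart if strand was not used.

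**Figure D2:**
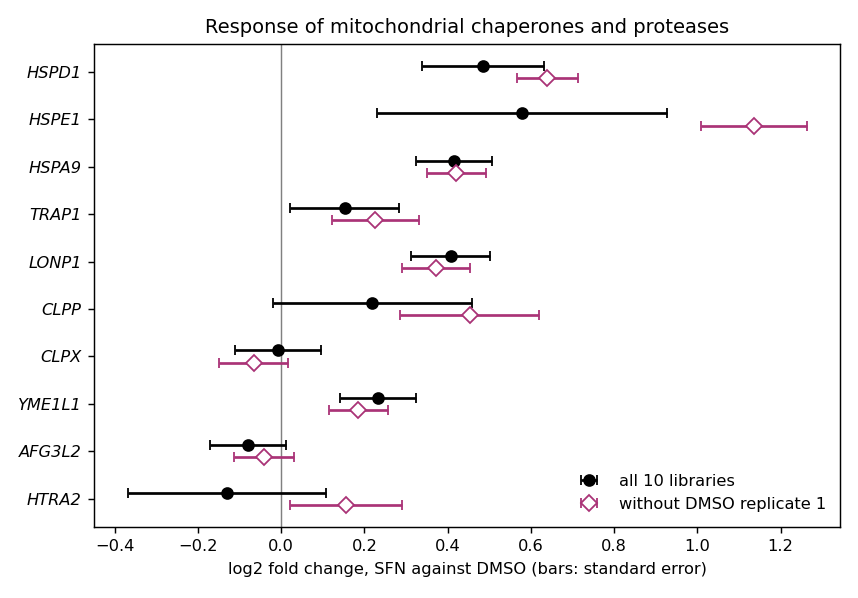
Log2 fold change of SFN against DMSO (horizontal axis) with its standard error, for all 10 libraries (filled circles) and without DMSO replicate 1 (open diamonds). HSPE1 moves from 0.58 to 1.14 and HTRA2 from -0.13 to 0.16, while HSPA9 stays at 0.42.

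Among the proteases, LONP1 alone rose over all libraries. LONP1 encodes the AAA+ protease that clears oxidized and misfolded matrix proteins, and lies on chromosome 19 from 5691834 to 5720572. DMSO libraries held 111, 125, 133, 119 and 115 CPM and SFN libraries 166, 158, 156, 174 and 146 CPM. The lowest SFN library was thus above the highest DMSO library. Its level went from 121 ± 8.93 to 160 ± 10.8 CPM (SD, n = 5 each), a log2 fold change of 0.41 (SE 0.095, edgeR adjusted p = 0.0091), and the log2 fold change was 0.37 without DMSO replicate 1 (SE 0.081, edgeR adjusted p = 0.0021). With scaling by library size only it was 0.32 and missed the threshold (adjusted p = 0.079). RPL36, on the opposite strand, shares 0.835% of its exon bases and had between 1786 and 11881 counts, against between 1775 and 2786 for LONP1. The shared bases lie at the end of the LONP1 gene. These libraries read the 3′ ends of transcripts, so a share of exon bases is not a share of reads. If strand was not used in counting, reads in these bases cannot be told apart, which bears on the LONP1 level.

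YME1L1 encodes the i-AAA protease, whose active site faces the intermembrane space. On chromosome 10 it spans 27110111 to 27155266. It was at 174, 201, 194, 209 and 208 CPM in DMSO and at 236, 227, 239, 218 and 239 CPM in SFN. The groups did not overlap, yet the difference missed the threshold (log2 fold change 0.23, SE 0.092, adjusted p = 0.092), and it passed without DMSO replicate 1, the lowest library (log2 fold change 0.19, SE 0.071, adjusted p = 0.044). MASTL, on the opposite strand, covers 6.04% of the YME1L1 exon bases and had between 734 and 1709 counts. These bases lie at the beginning of the YME1L1 gene, away from its 3′ end. HSPA9, LONP1 and YME1L1 were the 3 of 10 genes whose groups did not overlap with higher SFN values, where 8.78% of all genes were of this kind (19.9% in either direction). Without DMSO replicate 1, HSPD1 and HSPE1 joined them, where 16.6% were.

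AFG3L2 encodes a subunit of the m-AAA protease on the matrix side of the inner membrane, and lies on chromosome 18 from 12328944 to 12377227. It ranged from 177 to 212 CPM in DMSO (median 188) and from 171 to 192 CPM in SFN (median 179). Its log2 fold change was -0.08 (SE 0.092, adjusted p = 0.59) (-0.04 without DMSO replicate 1) and was negative in all 17 alternatives, past the threshold in 0 of them. TUBB6, on the opposite strand, covers 11.7% of the AFG3L2 exon bases and had between 3613 and 11619 counts. The span of TUBB6 crosses the end of the AFG3L2 gene, so reads there cannot be told apart if strand was not used.

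CLPP and CLPX encode the peptidase and the unfoldase of one matrix protease, on chromosome 19 from 6361531 to 6370242 and on chromosome 15 from 65148219 to 65185342. CLPP was at 31.1, 16.5, 15.7, 15.8 and 16.5 CPM in DMSO and at 19.0, 31.4, 22.6, 23.7 and 14.6 CPM in SFN. In each group a single library was near 31 CPM, DMSO replicate 1 and SFN replicate 2. The CLPP log2 fold change was 0.22 (SE 0.24, adjusted p = 0.57), and without DMSO replicate 1 it was 0.45 (SE 0.17, adjusted p = 0.039). CLPX ranged from 59.3 to 79.0 CPM in DMSO and from 62.5 to 75.8 CPM in SFN, its log2 fold change being -0.01 (SE 0.10, adjusted p = 0.97). CLPX had its lowest value in each group in the library where CLPP was highest.

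HTRA2 encodes a serine protease of the intermembrane space that can leave mitochondria during cell death. It lies on chromosome 2 from 74529596 to 74533350. DMSO libraries held 41.9, 22.8, 18.6, 19.0 and 18.5 CPM and SFN libraries between 16.1 and 25.9 CPM. DMSO replicate 1 was above all other libraries. The log2 fold change was -0.13 over all libraries (SE 0.24, adjusted p = 0.75) and 0.16 without DMSO replicate 1 (adjusted p = 0.36). LOXL3, on the opposite strand, covers 27.5% of the HTRA2 exon bases, toward the end of the HTRA2 gene, and had at most 66 counts. AUP1, also opposite, covers 4.85%, at the beginning of the HTRA2 gene and thus away from its 3′ end. It had between 1197 and 1837 counts, above the 228 to 673 of HTRA2.

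The deviation of DMSO replicate 1 from the other DMSO libraries differed from gene to gene. Among these 10 genes it tended to be higher for shorter transcripts, and length was not examined over the other genes. The order was not strict: CLPP deviated more than the shorter TRAP1 (2223 bases, 0.36) and HSPD1 (2245 bases, 0.67). On the log2 scale it was 1.77 for HSPE1, whose canonical transcript in GENCODE 44 has 557 bases, 1.09 for HTRA2 (1785 bases) and 0.95 for CLPP (2410 bases). It was -0.29 for CLPX (4695 bases) and -0.22 for YME1L1 (4191 bases). Over the 10 genes the Spearman correlation of this deviation with length was -0.891 (Pearson -0.910), with all points from the same library. For SFN replicate 2 against the other SFN libraries the Spearman correlation was -0.588, with 0.68 for CLPP, 0.42 for TRAP1 and 0.38 for HSPE1. It was 0.09 for HTRA2 and -0.05 for HSPD1 (2245 bases), whose transcripts are shorter than that of CLPP. Leaving out DMSO replicate 1 moved the log2 fold change of CLPX from -0.01 to -0.07 and that of HSPE1, with the shortest transcript, from 0.58 to 1.14. The part of transcript length in these results was not tested.

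**Figure D3:**
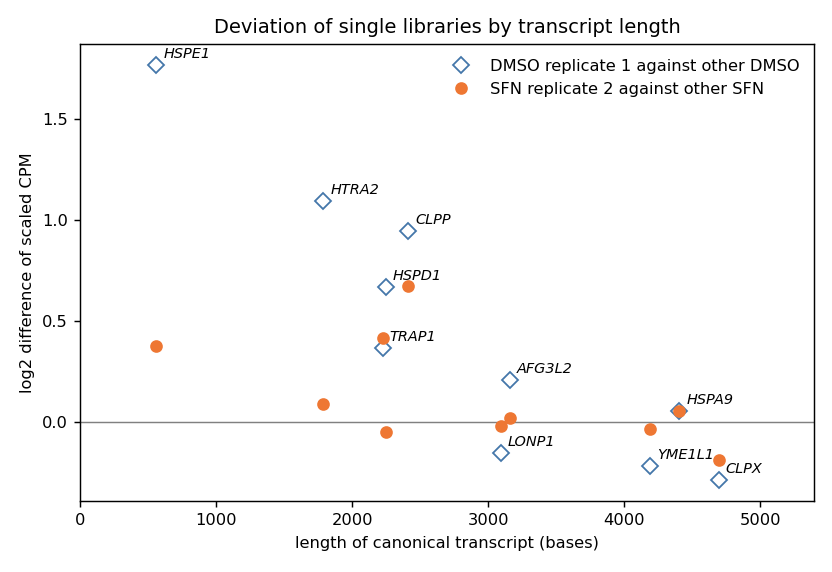
Difference in log2 scaled CPM (vertical axis) of DMSO replicate 1 from the mean of the other DMSO libraries (open diamonds) and of SFN replicate 2 from the other SFN libraries (filled circles), against the length of the canonical transcript in bases (horizontal axis). The open diamonds go from 1.77 for HSPE1, at 557 bases, to -0.29 for CLPX, at 4695 bases.

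Ratios of partners within a library do not depend on the scaling between libraries, and 3 were tested by a two-sided exact permutation test over samples, with p-values adjusted over the 3. The log2 ratio of HSPA9 to GRPEL1, the exchange factor that resets the matrix HSP70, was 4.05, 3.98, 4.16, 3.93 and 3.89 in DMSO and 4.33, 4.45, 4.28, 4.36 and 4.42 in SFN. The groups did not overlap. The ratio was 0.37 higher in SFN (exact p = 0.0079, the smallest that 5 against 5 allows, adjusted p = 0.024, n = 5 each), while GRPEL1 itself had a log2 fold change of 0.04 (SE 0.099).

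For HSPE1 to HSPD1 the log2 ratio was -5.71 ± 0.52 in DMSO and -5.44 ± 0.22 in SFN (SD, n = 5 each), a difference of 0.27 that did not pass (exact p = 0.32, adjusted p = 0.48). DMSO replicate 1 had the highest ratio, -4.83. Without it, the DMSO mean was -5.93 and the ratio was 0.49 higher in SFN, without overlap (exact p = 0.016, adjusted p = 0.024). For CLPX to CLPP the ratio was 1.92 ± 0.56 in DMSO and 1.68 ± 0.51 in SFN (SD, n = 5 each), a difference of -0.23 (exact p = 0.48, adjusted p = 0.48), and it was -0.48 without DMSO replicate 1 (exact p = 0.11, adjusted p = 0.11).

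**Figure D4:**
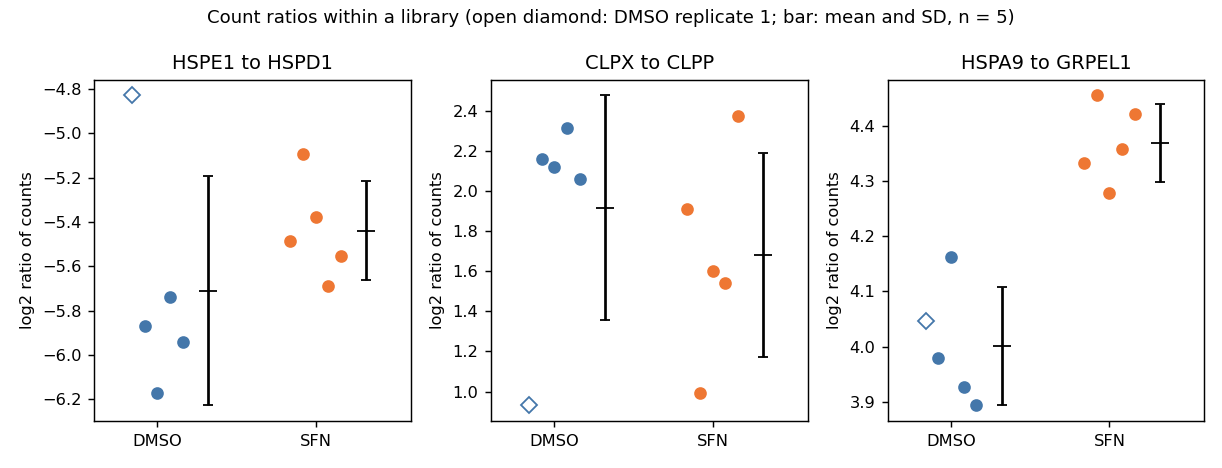
Log2 ratio of raw counts (vertical axes) of 3 pairs of partner genes in each DMSO and SFN library, with the mean and SD beside the points and DMSO replicate 1 as an open diamond. HSPA9 to GRPEL1 separates the groups, with DMSO between 3.89 and 4.16 and SFN between 4.28 and 4.45.

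In a list of other genes that chaperone, process or degrade mitochondrial proteins, 4 of 25 tested rose and 1 fell, where 9.07% of all genes rose and 13.9% fell, with a median log2 fold change of 0.09. Without DMSO replicate 1 the counts were 8 and 3, where 22.5% and 23.5% of all genes were called. GRPEL2, a second exchange factor of the matrix HSP70, rose most, from 20.1 ± 0.798 to 41.7 ± 1.39 CPM (SD, n = 5 each, log2 fold change 1.05, SE 0.089, edgeR adjusted p = 8.8e-06). OMA1, the stress-activated protease that cuts OPA1 and DELE1, rose from 9.49 ± 1.73 to 15.9 ± 1.61 CPM (log2 fold change 0.75, adjusted p = 0.0030). LACTB, a filament-forming protease of the intermembrane space, fell from 92.3 ± 13.8 to 51.3 ± 2.74 CPM (log2 fold change -0.85, adjusted p = 2.5e-04). The groups did not overlap for any of GRPEL2, OMA1 and LACTB.

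Of 27 genes of the import machinery, 1 rose and 3 fell (median log2 fold change 0.06), and without DMSO replicate 1, 6 rose and 3 fell. Over all genes the shares were 9.07% and 13.9%, and 22.5% and 23.5% without that library. TIMM44, which tethers HSPA9 to the import channel, was the gene that rose, from 48.9 ± 2.86 to 79.4 ± 3.34 CPM (SD, n = 5 each, log2 fold change 0.70, SE 0.088, edgeR adjusted p = 1.6e-04). TIMM8A and TIMM9, small chaperones of the intermembrane space, fell, with log2 fold changes of -0.75 (adjusted p = 0.0051) and -0.73 (adjusted p = 0.040). For TIMM9 the groups overlapped, and its log2 fold change was -0.46 without DMSO replicate 1 (edgeR adjusted p = 0.0098). The TIMM9 call was lost with quantile normalization, under the replicate block and without DMSO replicate 2 or 4 or SFN replicate 1, 3, 4 or 5 (adjusted p from 0.050 to 0.13).

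Of 11 regulators linked to mitochondrial stress, 3 rose and 1 fell, where 9.07% and 13.9% of all genes did, and 5 rose and 2 fell without DMSO replicate 1, where 22.5% and 23.5% did. CEBPG, a partner of ATF4, rose from 35.5 ± 1.84 to 110 ± 6.26 CPM (SD, n = 5 each, log2 fold change 1.63, edgeR adjusted p = 4.6e-07). DDIT3, which encodes CHOP, and ATF4 rose with log2 fold changes of 2.21 (edgeR adjusted p = 1.1e-05) and 1.502 (edgeR adjusted p = 0.0015). ATF5, a factor tied to the mammalian mitochondrial unfolded protein response, was at 38.2 ± 3.61 CPM in DMSO and 31.0 ± 3.63 CPM in SFN, a log2 fold change of -0.31 that missed the threshold (adjusted p = 0.079), and it fell in the fit without DMSO replicate 1 (-0.30, adjusted p = 0.030). DELE1, which relays mitochondrial stress to the integrated stress response after OMA1 cuts it, fell (log2 fold change -0.40, SE 0.12, edgeR adjusted p = 0.036). That call was lost with quantile normalization, without a low-count filter, under the replicate block and without DMSO replicate 3 or 4 or SFN replicate 1, 3, 4 or 5 (adjusted p from 0.057 to 0.10). CEBPB, a transcription factor of the same family as CEBPG, had a log2 fold change of 0.81 with an adjusted p of 0.051. It passed with library size only, DESeq2, quantile normalization, no filter, the replicate block and quality weights, without SFN replicate 5, and without DMSO replicate 1, where the log2 fold change was 1.13 (edgeR adjusted p = 6.6e-05). SSBP1, which binds single-stranded mitochondrial DNA, had a log2 fold change of 0.22 (adjusted p = 0.52), and without DMSO replicate 1 it rose by 0.48 on the log2 scale, without overlap (edgeR adjusted p = 0.0022). HSF1, EIF2AK1, LRPPRC and SIRT3 lay between -0.14 and 0.14 and did not pass with or without that library.

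Side by side with chaperones of other compartments, the 10 mitochondrial genes had a lower median change. Unlike the other lists, the 10 include proteases, which lay between -0.13 (HTRA2) and 0.41 (LONP1). Their chaperones and co-chaperone had log2 fold changes of 0.48 (HSPD1), 0.58 (HSPE1), 0.42 (HSPA9) and 0.15 (TRAP1). Without DMSO replicate 1 these were 0.64, 1.14, 0.42 and 0.23. Of 17 cytosolic and nuclear chaperones and cofactors, 13 rose and 0 fell (0 at an unadjusted p under 0.05 and 0 by DESeq2), with a median log2 fold change of 1.25 and a range from 0.20 to 4.34. Of 15 ER chaperones and folding enzymes, 10 rose and 0 fell (0 at an unadjusted p under 0.05 and 0 by DESeq2), with a median of 0.49. Over all genes tested, 9.07% rose and 13.9% fell. DNAJB9 had the largest log2 fold change among the ER genes, 1.91, and MANF the next, 0.93, while without DMSO replicate 1 SDF2L1 (1.09) and HSPA5 (1.07) stood above MANF (1.06). The 10 mitochondrial chaperones and proteases had a median of 0.23 and a highest value of 0.58, that of HSPE1, which did not pass. Without DMSO replicate 1, 16 cytosolic and nuclear, 14 ER and 6 mitochondrial genes rose, where 22.5% of all genes did. The list medians were then 1.23, 0.52 and 0.30, and the value of HSPE1 was 1.14. No test of the difference between the lists was made.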

How the data were processed

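RPE-1 cells treated with SFN or DMSO for 4 h (5 replicates each) were compared. The authors deposited raw counts per Ensembl gene (GRCh38), without normalization and with replicates separate. Their methods describe Lexogen QuantSeq libraries, which read the 3′ ends of transcripts, aligned with the Bluebee pipeline, and the submitters' processing notes name FastQC, STAR, featureCounts and edgeR. Versions, strand setting and Ensembl release are not given in the sources used here.

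Genes were filtered with filterByExpr, scaled by TMM and tested with glmQLFit and glmQLFTest in edgeR 4.0.16 (R 4.3.3), with Benjamini-Hochberg adjustment over all genes tested and a threshold of 0.05. Standard errors were taken as the size of the log2 fold change over the root of the F statistic. Ratios used counts plus 0.5. Alternatives were library size only, upper quartile scaling, DESeq2 1.42.0, limma-voom 3.58.1 with quantile normalization or sample quality weights, no filter, a replicate block and leaving out each library. The study's own model, which accounted for repeated measures, was not run. The script was tested on simulated data. It called 76% of genes set to an absolute log2 fold change of 1 and 6% of those set to 0.5. Of all its calls there, 6.8% were false. The simulated spread of each gene was estimated from all libraries and applied evenly, so no simulated library stood apart as DMSO replicate 1 did. Only genes above a minimum mean count were set to change.

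The members and lists were chosen with earlier results of these data known. Longer heat shock elements and MOB4 were added after values were seen. Named genes are the members, all regulators, the pair with the largest increases and the pair with the largest decreases of each other list (adjusted p under 0.05, mean of at least 5 CPM), and readthrough genes and pseudogenes of members. Of the cytosolic list, HSPA1A and HSPA1B were so named. Positions are from GENCODE 44 and promoter windows from RefSeq (GRCh38.p14). Gene symbols were those of the table, or current symbols matched by Ensembl identifier.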

Additional observations from a re-analysis of the deposited data

Results flagged for a closer look

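In 72 groups of 5 replicates, 15 had 1 replicate that stood apart, where chance flags about 3.6, and in 14 of them it was DMSO replicate 1. Given in parentheses is the distance from that replicate to its closest neighbour as a share of the group's range, of which 0.71 is exceeded by chance in about 1 group in 20. Among the mitochondrial chaperones and proteases DMSO replicate 1 stood above the rest for HSPD1 (0.91), HSPE1 (0.89), TRAP1 (0.77), CLPP (0.95) and HTRA2 (0.82), and its log2 ratio of CLPX to CLPP was the lowest (0.81). It was also highest for ATF4 (0.80), CEBPB (0.73), SSBP1 (0.85), LACTB (0.80), TIMM9 (0.74) and MOB4 (0.76), and lowest for EIF2AK1 (0.88) and SIRT3 (0.73). SFN replicate 1 stood apart for SIRT3 (0.82), with 2.62 CPM against at least 4.86 in the other SFN libraries. The cause of the deviation of DMSO replicate 1 was not tested.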

How the results depend on the processing

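HSPA9 and LONP1 passed the threshold in 15 of 17 alternatives each, HSPD1 in 8 and YME1L1 in 3, while AFG3L2, CLPX and HTRA2 passed in 0. Adjusted p ranged from 8.7e-12 to 0.086 for HSPA9, from 3.3e-06 to 0.079 for LONP1 and from 7.3e-09 to 0.087 for HSPD1. Without a low-count filter 0 of the 10 genes were increased, where 1135 of all 28380 genes were, and with sample quality weights 7 were. With sample quality weights 10 quality control genes rose and 4 fell, 12 import genes rose, 6 regulators rose and 2 fell, and 3874 and 4041 of all genes tested rose and fell, against 1214 and 1862. DESeq2 gave 2 increased import genes and limma-voom with quantile normalization gave 3 increased and 1 decreased. Decreased regulators numbered 2 with library size only and with DESeq2, and 0 with quantile normalization, without a filter and under the replicate block. With each library left out in turn, between 2 and 6 of the 10 genes rose, the 6 without DMSO replicate 1. Quality control genes increased numbered 3 to 8 and decreased 1 to 3, import genes 1 to 6 and 1 to 3, regulators 3 to 5 and 0 to 2, and all genes 906 to 3058 and 1470 to 3193. The ratio of HSPE1 to HSPD1 differed by 0.16 to 0.49. Directions reversed for CLPX with DESeq2 (0.0088) and between -0.066 and 0.038 with a library left out (positive without DMSO replicate 2, DMSO replicate 4 or SFN replicate 2), for HTRA2 with quality weights (0.20) and between -0.21 and 0.16 (positive without DMSO replicate 1), for EIF2AK1 with quality weights (-0.044) and between -0.060 and 0.21 (negative without DMSO replicate 1), and for SIRT3 with quantile normalization (0.015) and between -0.20 and 0.0093 (positive without SFN replicate 1). The causes were not tested. Same-numbered libraries mostly did not deviate together, with correlations from -0.27 to 0.039 for replicates 1 to 4 and 0.48 for replicate 5. Of 10 samples, 2 were closest to their own number. Under the replicate block 1 import gene fell. The HSPA9 to GRPEL1 difference was then 0.37 with an exact p of 0.062, the smallest that 32 sign changes allow.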
